A study of Mus musculus with 6 samples.

Results

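Secreted Wnt antagonists are the 8 genes Dkk1, Dkk2, Dkk3, Sfrp1, Sfrp2, Sfrp4, Frzb and Wif1, taken by their gene symbols from the table of estimated read counts per gene. All 8 were found among the 22287 genes of that table, and all 8 passed the filter on low counts that left 17305 genes for testing. They were measured by RNA sequencing of the apical part of the first mandibular molar, the end from which the tooth root grows, in C57BL/6 mice at postnatal day 7.5. Control mice were Arid1a fl/fl, with loxP sites in both copies of Arid1a, a DNA-binding subunit gene of the BAF chromatin remodelling complex (3 libraries, replicates 2, 3 and 5). Mutant mice were Gli1-CreER;Arid1a fl/fl (3 libraries, replicates 3, 4 and 5). Gli1-CreER is a tamoxifen-activated recombinase expressed under the control of Gli1, a gene of Hedgehog-responsive cells, so Arid1a is deleted in those cells and their descendants and not throughout the tissue. Per the labels, tamoxifen was injected into all mice at postnatal day 3.5 (1.5 mg for each 10 g of weight), and no group without it was analysed here. CreER was carried by the mutants alone, so its effects and those of the deletion cannot be told apart. The labels do not say whether a library came from 1 animal or several, so each p-value reflects the spread among these libraries, which may be technical.

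Wnt ligands are secreted proteins that bind Frizzled receptors and the co-receptors LRP5 and LRP6, which stabilises beta-catenin and turns on target genes. Cells limit the signal from outside with secreted antagonists of several kinds. Secreted frizzled-related proteins (Sfrp1, Sfrp2, Sfrp4 and Frzb, which is also called Sfrp3) carry a Frizzled-like cysteine-rich domain and bind Wnt ligands. Wif1, Wnt inhibitory factor, binds ligands through a different domain. Dickkopf proteins Dkk1 and Dkk2 bind LRP5 and LRP6 and not the ligand, together with the Kremen receptors, and Dkk3 is a divergent member of that family. In teeth, Wnt signalling is needed for crown patterning, for odontoblasts and for root formation.

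The promoters of the 2 antagonist genes that rose in the mutants, Dkk2 and Sfrp2, are shown so that both can be set side by side. Each is the 250 bases before the RefSeq start (GRCm38.p6, the assembly of mm10), 5′ to 3′ on the gene's own strand, which is plus for both. Capitals mark a match to TATAAA. The Dkk2 window is chr3:132085042-132085291 and the Sfrp2 window is chr3:83766071-83766320.
Dkk2: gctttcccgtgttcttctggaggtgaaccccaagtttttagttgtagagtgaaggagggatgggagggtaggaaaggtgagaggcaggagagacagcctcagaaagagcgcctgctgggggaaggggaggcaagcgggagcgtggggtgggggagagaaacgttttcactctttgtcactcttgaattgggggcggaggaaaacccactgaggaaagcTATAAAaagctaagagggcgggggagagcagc
Sfrp2: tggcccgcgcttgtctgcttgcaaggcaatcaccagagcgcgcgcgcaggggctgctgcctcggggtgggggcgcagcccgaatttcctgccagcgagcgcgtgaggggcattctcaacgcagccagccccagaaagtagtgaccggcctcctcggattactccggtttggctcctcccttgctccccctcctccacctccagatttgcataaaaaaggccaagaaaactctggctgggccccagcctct
RefSeq promoters were matched for 5 of the 8 genes, namely Dkk1, Dkk2, Sfrp2, Frzb and Wif1. Each was searched on both strands for 4 short motifs, and none of the matches overlapped. The TCF/LEF core CTTTGA was absent from the windows of Dkk2, Sfrp2 and Wif1. It occurred in that of Dkk1, with first bases at -174 and -117 from the RefSeq start, and in that of Frzb at -95. It occurs in 13.8% of the 32851 RefSeq promoter windows of this length. The AP-1 motif TGANTCA (6.75% of windows) and the GLI motif GACCACCCA (0.225%) were in none of the 5. TATAAA, chosen after the sequences were seen, was at -32 in Dkk2, -54 in Dkk1 and, on the other strand, -232 in Wif1, and is in 12.4% of windows. The GENCODE M21 annotation has the same start for Dkk2 and Sfrp2. For Dkk1, Frzb and Wif1 it places the start farther upstream, inside the window, at 30549665, 80447625 and 121033960. The matches at -117 and -54 in Dkk1 and at -95 in Frzb thus lie within the gene as GENCODE places it. G and C made up 55.6% of the Dkk2 window and 63.6% of the Sfrp2 window, against a median of 52.4% over all windows. These matches are letters in a window and say nothing of binding.

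The 6 libraries held 20453247 to 24255352 estimated counts each. Levels are given as CPM, the count of a gene scaled to a fixed library size, after scaling between libraries by the TMM method. The targeted gene, Arid1a, had 202 to 210 CPM in controls and 120 to 134 CPM in mutants, and fell by 0.68 on the log2 scale (adjusted p = 0.0129, edgeR quasi-likelihood test). Gli1 fell by 1.25 (adjusted p = 0.00753). Markers of odontoblasts (6 of 6 genes detected in each library) and dental epithelium (12 of 12) were present. Of 12 summed lists of cell type markers, 8 were higher in all mutant libraries than in any control, 1 was lower, and 3 (odontoblast, pericyte and skeletal muscle) overlapped. The summed level of 9 dental follicle and periodontal ligament markers was 1288 to 1559 CPM in controls and 2000 to 2384 CPM in mutants, with 3 called higher, 0 lower and none at 0 in any library. For 12 dental epithelium markers, which include the enamel matrix genes, the sum was 179216 to 278480 CPM in controls and 68438 to 113785 CPM in mutants, with 0 called higher, 1 lower and none at 0. Erythroid markers summed to 1423 to 1948 CPM in controls and 2366 to 5510 CPM in mutants (7 genes, 6 tested, 0 called, none at 0). Dental papilla markers summed to 3470 to 3665 CPM in controls and 3778 to 4456 CPM in mutants (10 genes, 2 called higher, 0 lower). Most of that sum was Igfbp5, which was not called (2886 to 3101 CPM in controls and 3121 to 3827 CPM in mutants). Of the 10 papilla genes, 7 had a positive and 3 (Msx2, Fgf3 and Fgf10) a negative log2 fold change. Macrophage markers summed to 200.3 to 242 and 272 to 351 CPM (6 genes, 1 called higher), and osteoblast markers to 2263 to 2760 and 2835 to 3415 CPM (6 genes, 0 called). The remaining higher sums, with 0 genes called by edgeR, were those of chondrocytes (26.5 to 43.0 and 44.9 to 73.2 CPM), Schwann cells (13.1 to 15.4 and 20.1 to 24.7 CPM) and endothelium (223 to 261 and 265 to 276 CPM). The part of these cell types in the antagonist results was not tested, and in tissue RNA more cells of a type and more RNA per cell cannot be told apart.

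Dkk2 and Sfrp2 rose about equally in the mutants, to 2.10 and 2.11 times the control level, and the other 6 antagonist genes did not pass the test. A gene was called at a Benjamini-Hochberg adjusted p under 0.05 over all genes tested. By this rule 2 of the 8 members were higher and 0 lower, where 0.659% of all tested genes were higher and 1.20% lower. At an unadjusted p under 0.05, 4 were higher and 0 lower, where 7.13% of all tested genes were higher and 7.83% lower. DESeq2 called 3 higher and 0 lower, where it called 2.19% of all genes with an adjusted p higher and 3.07% lower. Libraries of the groups did not overlap for 4 members, Dkk2, Sfrp2, Sfrp1 and Wif1, each higher in mutants, where 10.6% of all tested genes were so separated with the mutants higher and 10.8% with the mutants lower. Of the 8 genes, 6 had a positive log2 fold change, against 52.0% of all tested genes. The median log2 fold change over the 8 genes was 0.40, and over all tested genes it was 0.01. The genes were selected with earlier results of these data known, so the counts describe them and are no test of the group.

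**Figure D1:**
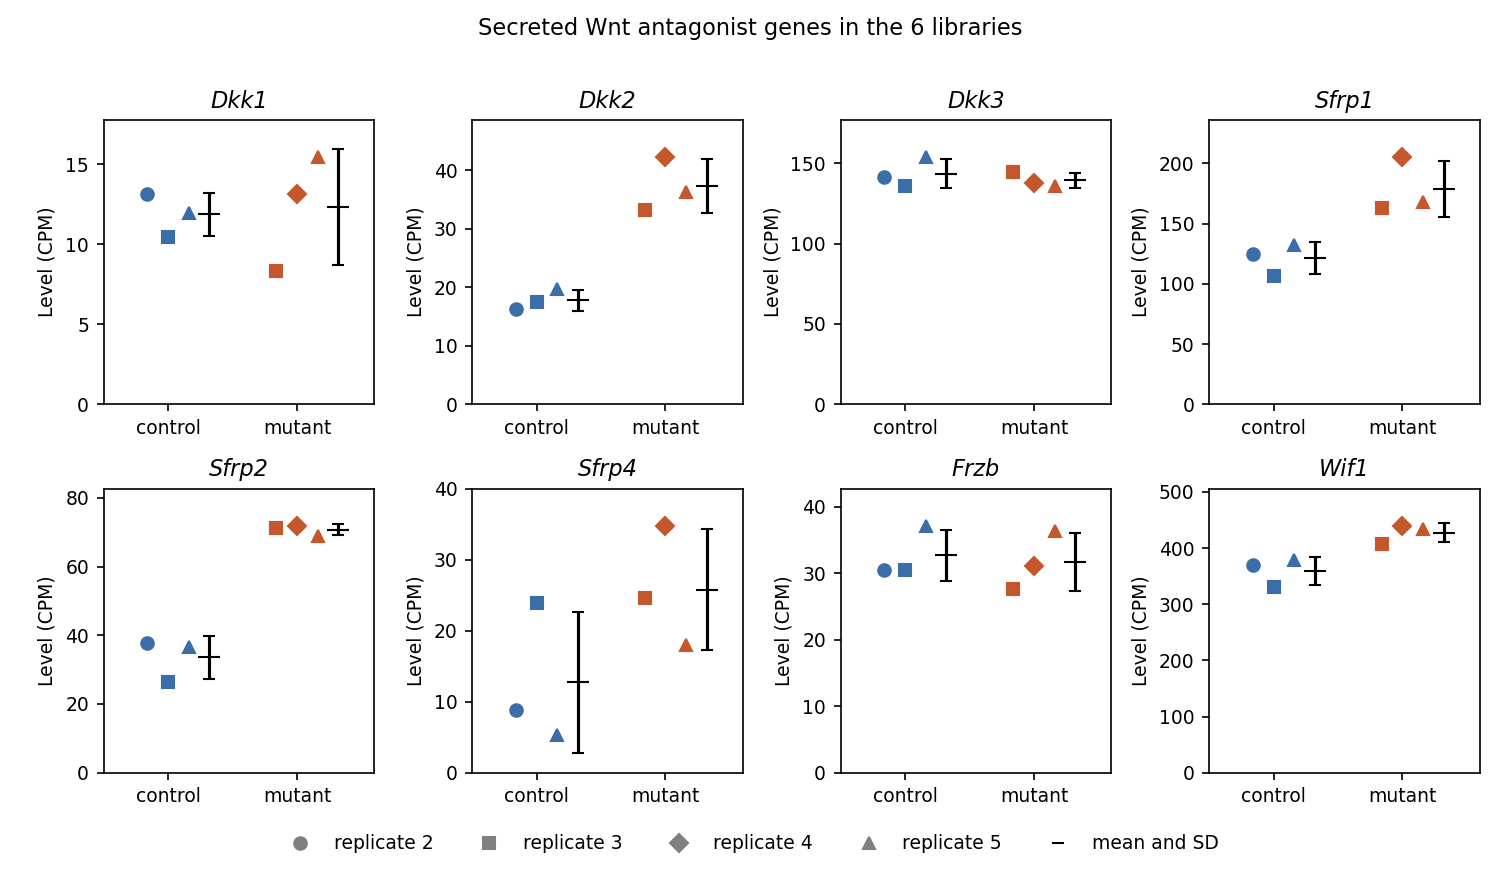
Level in CPM (y axes from 0) of each of the 8 antagonist genes in the 3 control libraries (blue) and 3 mutant libraries (orange), with marker shape for the replicate number and the group mean and SD in black. Dkk2 at 33.1 to 42.2 CPM and Sfrp2 at 68.9 to 71.9 CPM in mutants lie above every control library, while the groups overlap for Dkk1, Dkk3, Sfrp4 and Frzb.

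Among the Dickkopf genes, Dkk2 was the only riser, and Dkk1 and Dkk3 had intervals that include 0. Dkk2 encodes a ligand of LRP5 and LRP6 that can inhibit Wnt signalling, depending on the setting. In mm10 it occupies positions 132085292 to 132180304 of chromosome 3 (plus strand), and GENCODE M21 lists it, like the other 7 genes, as protein-coding. Its level was 16.2, 17.4 and 19.6 CPM in control replicates 2, 3 and 5 and 33.1, 42.2 and 36.3 CPM in mutant replicates 3, 4 and 5. Every mutant library was above every control library, and the lowest mutant value was 1.69 times the highest control value. The log2 fold change was 1.07 (SE 0.12, 95% interval 0.80 to 1.34, adjusted p = 0.0133, edgeR). Its estimated counts were 333 to 372 in controls and 826 to 973 in mutants, for which counting error alone gives a coefficient of variation of 5.31% and 3.37%, against 9.86% and 12.4% observed. Dkk2 did not pass in the fits that left out control replicate 2 (adjusted p = 0.0532) or control replicate 3 (0.0604), although its log2 fold change there was 1.01 and 1.06.

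Dkk1, a strong inhibitor of LRP5 and LRP6 signalling, lies on chromosome 19 from 30545863 to 30549665. It stood at 13.2, 10.5 and 12.0 CPM in control replicates 2, 3 and 5 and at 8.35, 13.1 and 15.5 CPM in mutant replicates 3, 4 and 5. Mutant replicate 3 was the lowest of all 6 libraries and mutant replicate 5 the highest, so the mutants spread to both sides of the controls. The log2 fold change was 0.050 (SE 0.22, 95% interval -0.45 to 0.55, adjusted p = 0.942, edgeR). The sign was negative without control replicate 3 (-0.029), without mutant replicate 5 (-0.15) and with limma-voom (-0.00177). Dkk3, on chromosome 7 from 112116017 to 112159057, was among the most even genes of the 8. It had 141, 136 and 154 CPM in controls and 145, 138 and 136 CPM in mutants, in the same replicate order. The groups overlapped, with a log2 fold change of -0.042 (SE 0.075, 95% interval -0.21 to 0.13, adjusted p = 0.852). With scaling to library totals alone its sign turned (0.16, adjusted p = 0.178), as it did without control replicate 5 (0.018). The interval of Dkk2 did not overlap those of Dkk1 and Dkk3, but the difference between the genes was not tested.

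Of the secreted frizzled-related genes, Sfrp2 rose, Sfrp1 was higher in each mutant library without passing the test, Sfrp4 varied widely within the groups and Frzb showed a difference near 0. Sfrp2, which encodes a secreted Wnt-binding protein, lies on chromosome 3 from 83766321 to 83774316 on the plus strand. Its level was 37.7, 26.3 and 36.6 CPM in control replicates 2, 3 and 5. In mutant replicates 3, 4 and 5 it was 71.3, 71.9 and 68.9 CPM. The mutant libraries lay within 1.04 times of each other, all at least 1.83 times the highest control library. The log2 fold change was 1.08 (SE 0.13, 95% interval 0.77 to 1.38, adjusted p = 0.0163, edgeR). The antisense gene model Gm26771 overlaps an exon of Sfrp2 and had 6.93 to 9.59 estimated counts per library, against 563 to 1846 for Sfrp2. The strand of the reads was not given, so reads of both in that exon cannot be told apart. Sfrp2 did not pass when control replicate 2 (adjusted p = 0.0506), control replicate 5 (0.0618) or mutant replicate 4 (0.0558) was left out, while the log2 fold change stayed between 1.07 and 1.17 in those fits.

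Sfrp1, the closest relative of Sfrp2 among the 8, lies on chromosome 8 from 23411502 to 23449632. It stood at 125, 107 and 133 CPM in control replicates 2, 3 and 5 and at 163, 205 and 168 CPM in mutant replicates 3, 4 and 5. Each mutant library was above each control library, but the log2 fold change of 0.56 (SE 0.12, 95% interval 0.29 to 0.83) did not pass (adjusted p = 0.0657, edgeR). It passed with DESeq2 (adjusted p = 0.00104) and with library totals alone (adjusted p = 0.0208), and its adjusted p was 0.0621 to 0.221 in the other 13 settings.

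Sfrp4, on chromosome 13 from 19623104 to 19632994, differed most between libraries of a group. Control replicates 2, 3 and 5 had 8.90, 24.0 and 5.28 CPM, a span of 4.54 times, and mutant replicates 3, 4 and 5 had 24.6, 34.8 and 18.0 CPM. Control replicate 3 lay inside the mutant range, and the other controls lay below it. The log2 fold change of 1.01 was close to that of Dkk2, but with an SE of 0.50 and a 95% interval of -0.14 to 2.16 (adjusted p = 0.400). With 1 library left out it ranged from 0.65 without control replicate 5 (adjusted p = 0.614) to 1.86 without control replicate 3 (adjusted p = 0.111), and it passed in none of the 6 fits (edgeR). With 97 to 803 estimated counts per library, counting error accounts for a coefficient of variation of 7.69% in controls, where 77.9% was observed. Control replicate 3 also had the highest sums of the controls for follicle (1559 CPM), osteoblast (2760 CPM), erythroid (1948 CPM) and endothelium (261 CPM) markers. In control replicates 2 and 5 the follicle sum was 1512 and 1288 CPM, and the osteoblast sum 2428 and 2263 CPM. The erythroid sum there was 1807 and 1423 CPM, and the endothelium sum 223 and 258 CPM. Among the follicle markers, Postn, Igfbp3, Aspn, Scx, Mkx and Col14a1 were highest of the controls in control replicate 3. Tnmd, Col12a1 and Bmp3 were highest in control replicate 2. The part of these cell types in the Sfrp4 value was not tested. Frzb, on chromosome 2 from 80411970 to 80447625, had 30.5, 30.4 and 37.2 CPM in control replicates 2, 3 and 5 and 27.7, 31.1 and 36.4 CPM in mutant replicates 3, 4 and 5. The groups overlapped. Its log2 fold change was -0.043 (SE 0.13, 95% interval -0.33 to 0.25, adjusted p = 0.914), and its sign turned with library totals alone (0.17), without control replicate 5 (0.065) and without mutant replicate 3 (0.047).

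Wif1 was the most abundant of the 8 and showed a small difference that did not pass. It lies on chromosome 10 from 121033960 to 121100650 on the plus strand. Control replicates 2, 3 and 5 had 370, 331 and 378 CPM, and mutant replicates 3, 4 and 5 had 408, 440 and 434 CPM. All mutant libraries were above all control libraries, the lowest of them by 1.08 times. The log2 fold change was 0.25 (SE 0.084, 95% interval 0.055 to 0.44), with an adjusted p of 0.208 (edgeR). It was called with library totals alone (0.45, adjusted p = 0.0426). With 6951 to 10556 estimated counts per library its counting error was 1.18% in controls and 0.991% in mutants, and the coefficient of variation observed was 6.97% and 3.97%.

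**Figure D2:**
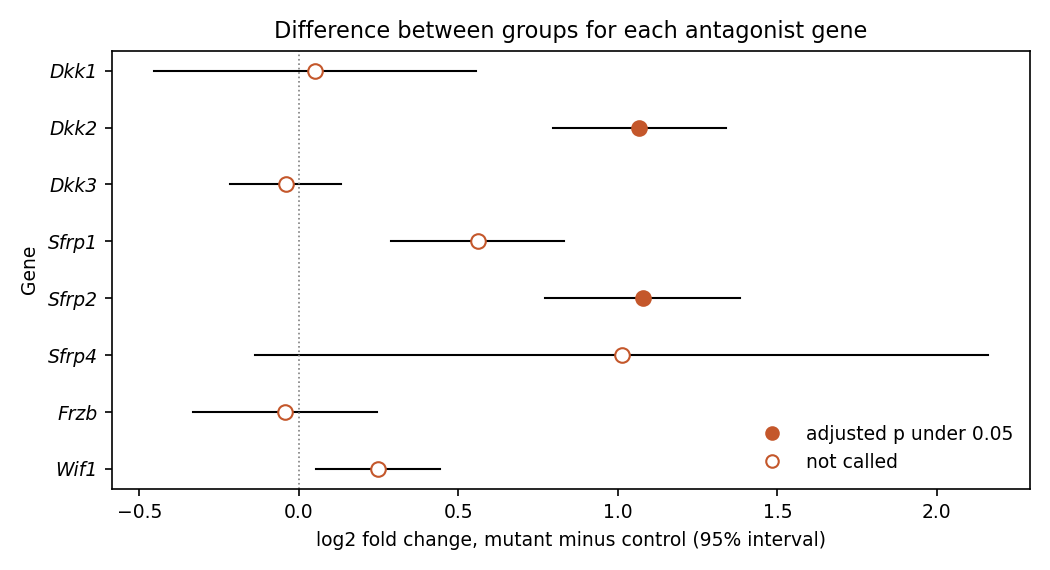
Log2 fold change of each antagonist gene, mutant minus control (x axis), with its 95% interval from the edgeR fit as a line; filled points passed at an adjusted p under 0.05. Dkk2 (1.07) and Sfrp2 (1.08) are the filled points, and Sfrp4 (1.01) has the widest interval, from -0.14 to 2.16.

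Control replicate 3 was the lowest control for 6 of the 8 genes (all but Dkk2 and Sfrp4) and the highest for 1, Sfrp4. Mutant replicate 4 was the highest mutant for 5 genes, Dkk2, Sfrp1, Sfrp2, Sfrp4 and Wif1, and mutant replicate 3 was the lowest for 5, Dkk1, Dkk2, Sfrp1, Frzb and Wif1. The same mutant replicate 4 had the highest summed follicle markers (2384 CPM) and erythroid markers (5510 CPM) of the 6 libraries. It was also highest in the sums of dental papilla (4456 CPM), endothelium (276 CPM) and Schwann cell markers (24.7 CPM). Their part in the order of the libraries was not tested.

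To compare genes with each other, levels were divided by the length of all annotated exons, in CPM per kilobase. In controls the order was Wif1 (148 ± 10.3 CPM per kilobase, SD, n = 3), Dkk3 (42.7 ± 2.75), Sfrp1 (27.7 ± 3.06), Sfrp2 (15.6 ± 2.90), Frzb (10.1 ± 1.19), Dkk1 (4.90 ± 0.556), Dkk2 (4.79 ± 0.472) and Sfrp4 (3.04 ± 2.37). Libraries of neighbours in this order did not overlap down to Dkk1, while Dkk1 overlapped Dkk2 and Dkk2 overlapped Sfrp4. In mutants Wif1 led again at 176 ± 6.98 CPM per kilobase. Sfrp1 (40.9 ± 5.25) then overlapped Dkk3 (41.5 ± 1.42), and Sfrp2 followed at 32.8 ± 0.736. Dkk2 (10.0 ± 1.25) overlapped Frzb (9.81 ± 1.35), and Dkk1 (5.07 ± 1.49) came last, overlapping Sfrp4 (6.17 ± 2.03). Dkk2 thus stood beside Dkk1 in controls and beside Frzb in mutants.

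**Figure D3:**
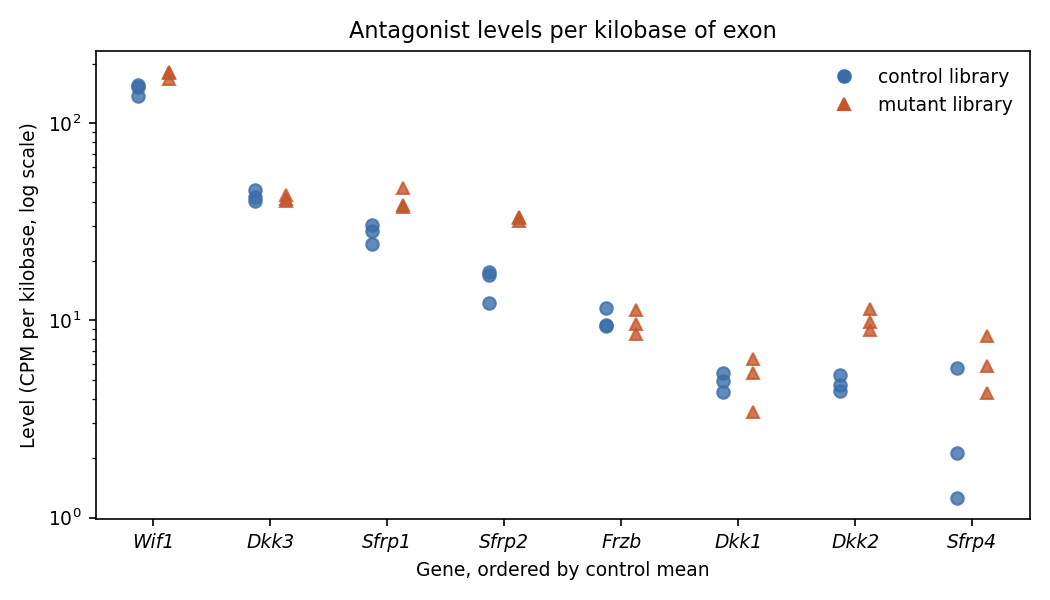
Level of each antagonist gene in CPM per kilobase of exon (log y axis) in each control library (circles) and mutant library (triangles), ordered by the control mean. Wif1 is highest at 136 to 156 in controls and 168 to 181 in mutants, and Sfrp4 spans 1.26 to 5.74 in controls.

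Summed over the 8 genes, antagonist transcripts came to 262, 238 and 272 CPM per kilobase in control replicates 2, 3 and 5 and to 308, 337 and 321 in mutant replicates 3, 4 and 5. Wif1 made up 57.6% ± 0.477 of this sum in controls and 54.6% ± 0.953 in mutants (SD, n = 3). The share of Sfrp2 was 6.03% ± 0.792 in controls and 10.2% ± 0.466 in mutants, and that of Dkk2 was 1.87% ± 0.170 and 3.11% ± 0.245. Dkk3 made up 16.6% ± 0.503 and 12.9% ± 0.949. The 16 Wnt ligand genes in the table summed to 148, 159 and 161 CPM per kilobase in control replicates 2, 3 and 5 and to 127, 131 and 116 in mutant replicates 3, 4 and 5. Antagonist sums were thus higher in all mutant libraries than in any control, and ligand sums were lower. These sums describe transcripts and carry no test.

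The rest of the pathway was read from 5 lists of 75 genes, of which 66 were tested. Of these, 2 were higher, 4 were lower and 60 did not pass, with a median log2 fold change of -0.01, against 0.01 over all genes. Of 8 other secreted inhibitors tested, 0 were called (edgeR; 2 higher and 1 lower at an unadjusted p under 0.05, and 1 higher with DESeq2), and their median was 0.24. Sostdc1, an inhibitor that binds LRP receptors and BMPs, averaged 79.7 ± 16.6 CPM in control libraries and 101 ± 15.7 CPM in mutant libraries (SD, n = 3), with an adjusted p of 0.404 (edgeR). Its groups overlapped.

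Among 13 ligand genes tested, 3 fell and 0 rose (edgeR; 3 were higher and 4 lower at an unadjusted p under 0.05, and 0 higher and 4 lower with DESeq2). Wnt3a fell from 20.6 ± 1.80 to 3.95 ± 1.62 CPM, the largest difference of the 66 genes (log2 fold change -2.39, 95% interval -3.05 to -1.73, adjusted p = 0.0150, SD, n = 3, edgeR). Wnt6 fell from 65.5 ± 4.50 to 42.7 ± 2.83 CPM (adjusted p = 0.0227) and Wnt10a from 66.8 ± 2.39 to 43.6 ± 1.24 CPM (adjusted p = 0.0133). The level of dental epithelium markers was lower in the same libraries, as given above, and its part in the ligand results was not tested. Among 17 receptor genes, Fzd1, a Frizzled receptor gene, rose from 54.6 ± 4.15 to 79.6 ± 7.49 CPM (adjusted p = 0.0373), and Fzd6, another of that family, fell from 96.1 ± 9.37 to 66.9 ± 6.43 CPM (adjusted p = 0.0499). With each library left out in turn, Wnt3a and Wnt10a were called in 3 of 6 fits, Wnt6 in 2, Fzd1 in 1, and Fzd6 and Nkd2 in 0.

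The co-receptor genes through which Dkk proteins act did not pass. Lrp5 averaged 89.1 ± 2.96 CPM in control libraries and 97.2 ± 3.63 CPM in mutant libraries (SD, n = 3), with an adjusted p of 0.443 (edgeR). The Lrp5 groups did not overlap. Lrp6 had 140 ± 10.1 and 135 ± 14.7 CPM (adjusted p = 0.886), with a sign that turned with library totals alone (0.16) and without mutant replicate 3 (0.044). Kremen1, which pairs with Dkk1 and Dkk2 at the co-receptors, had 132 ± 4.88 and 109 ± 0.727 CPM (log2 fold change -0.28, adjusted p = 0.0836). Its groups did not overlap, and it passed with DESeq2 (adjusted p = 0.00962).

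Target genes of beta-catenin showed no common direction. Of 12 tested, 1 rose and 0 fell (edgeR; 4 were higher and 2 lower at an unadjusted p under 0.05, and 2 higher and 1 lower with DESeq2), with a median log2 fold change of 0.01. The riser was Nkd2, an intracellular feedback inhibitor gene, which went from 24.1 ± 0.887 to 34.7 ± 2.25 CPM (SD, n = 3), with an adjusted p of 0.0272 (edgeR). Axin2, a widely used readout of the pathway, had 34.6, 31.6 and 28.3 CPM in control replicates 2, 3 and 5 and 26.4, 32.9 and 36.7 CPM in mutant replicates 3, 4 and 5. The groups overlapped, and the 95% interval of its log2 fold change ran from -0.29 to 0.33 (adjusted p = 0.962). Lef1, a transcription factor and target gene, had 16.5 ± 0.101 and 22.1 ± 3.69 CPM (adjusted p = 0.171). The Lef1 groups did not overlap, and it passed in 1 of the 15 other settings, without mutant replicate 3 (adjusted p = 0.0437, edgeR). Of 16 transducer genes, 0 were called (edgeR; 0 were higher and 4 lower at an unadjusted p under 0.05, and 0 higher and 1 lower with DESeq2), and 14 had negative fold changes (median -0.12).

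**Figure D4:**
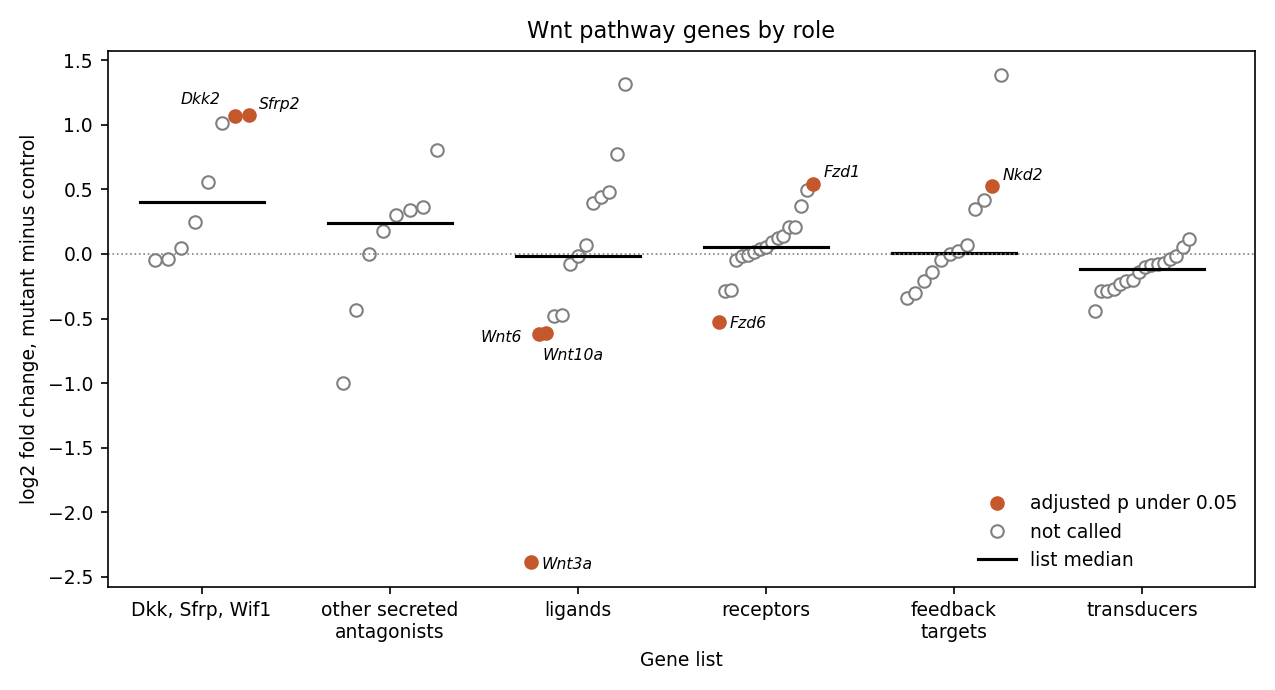
Log2 fold change, mutant minus control (y axis), of the 8 antagonist genes and of each tested gene in the 5 other Wnt lists (x axis), with filled points for an adjusted p under 0.05 and a bar at the list median. The antagonists have a median of 0.40 and the transducers of -0.12, and Wnt3a at -2.39 is the lowest point.

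The genes with the pattern most like that of Dkk2 over the 6 libraries were Cspg5, Tac1, Serpine2 and Peg10. Likeness was the root mean square difference in log2(CPM + 1) after each gene's mean was subtracted, over 10828 named autosomal genes of at least 5 CPM. It was 0.0839 for Cspg5, a brain proteoglycan gene, 0.104 for Tac1, the substance P precursor gene, 0.159 for the protease inhibitor gene Serpine2 and 0.162 for the imprinted gene Peg10. For Sfrp2 the nearest were Tnn (0.111), which encodes tenascin N, Tac1 (0.136), the complement gene C1ra (0.145) and Crabp2 (0.182), a retinoic acid binding protein gene. Tac1 was thus near both risers, with 4.33, 3.70 and 4.57 CPM in control replicates 2, 3 and 5 and 9.20, 11.7 and 10.5 CPM in mutant replicates 3, 4 and 5. All 7 of these genes were called higher, which the choice by likeness to a riser favours.

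**Figure D5:**
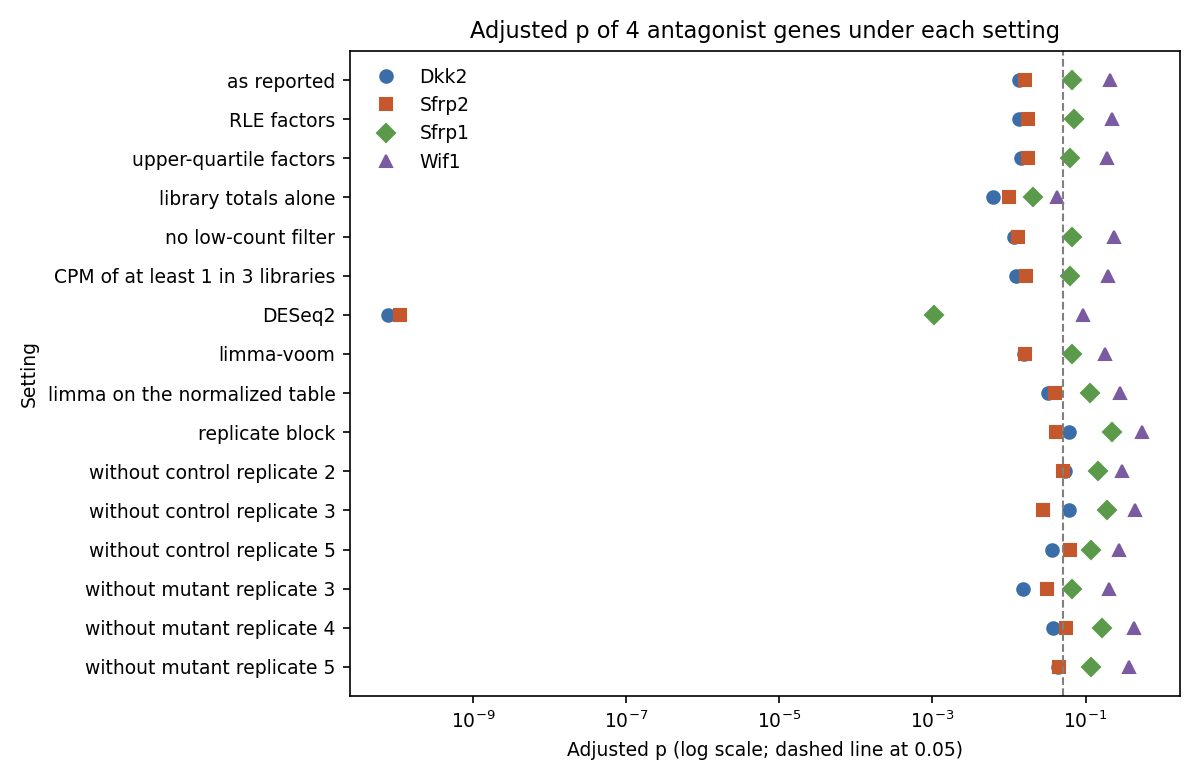
Adjusted p (log x axis, dashed line at 0.05) of Dkk2, Sfrp2, Sfrp1 and Wif1 as reported and under each of 15 other settings (y axis). Dkk2 and Sfrp2 lie left of the line in 12 of the 15 each, with highest values of 0.0610 and 0.0618, Sfrp1 in 2 and Wif1 in 1.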

How the data were processed

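Per the labels' protocols, apical molar RNA was read in 75 single-end cycles on a NextSeq500. The submitters' processing notes name STAR 2.6.1d, Partek and mm10. Library kit, strand and annotation were not given in the sources used here. The authors deposited expected counts per gene, which are estimates and often not whole (53.8% were whole within 0.001), and a second table of normalized signal, in which the count plus 1 is multiplied by a factor of its library. The second table served for 1 alternative only.

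Counts were rounded, filtered with filterByExpr by group, scaled by TMM and tested with edgeR 4.0.16 (glmQLFit, glmQLFTest, R 4.3.3), with Benjamini-Hochberg adjustment over 17305 genes. The SE is the size of the log2 fold change over the square root of its F. Exon lengths and positions came from GENCODE M21, whose starts match the deposited table for each of the 8 genes. Groups came from the genotype label and replicate numbers from the sample titles. The members and lists were chosen with earlier results of these data known. Besides the 8 members, genes named were the called genes of the 5 pathway lists, Axin2, Lef1, Lrp5, Lrp6, Kremen1, Sostdc1, Arid1a, Gli1 and the 4 genes nearest in pattern to each called member.

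Replicates differed by more than counting noise (chi-square per degree of freedom 19.3 to 34.8). The alternatives were 3 other scalings, 2 other filters, DESeq2 1.42.0, limma 3.58.1 (voom, and log2(value + 1) of the normalized signal), a replicate block and each library left out. In 3 draws of data simulated for mutants against controls (about 17052 genes), 60.1% of genes changed 2-fold and 19.8% of those changed 1.5-fold were called, and 7.71% of calls were false.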

Additional observations from a re-analysis of the deposited data

How the results depend on the processing

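The number of members called higher was 2. It was 4 with library totals alone, 1 with the replicate block and 0 to 2 when each library was left out in turn, with 0 without control replicate 2. Under library totals alone the median over all genes shifted from 0.0092 to 0.21 (log2), and the calls split into 411 higher and 109 lower (79.0% higher, against 35.4%). No member was called lower in any of the 15 settings (edgeR, DESeq2 or limma). Dkk2 and Sfrp2 kept their sign in 15 of 15 settings, as did Sfrp1, Sfrp4 and Wif1, with log2 fold changes of 0.91 to 1.27 for Dkk2 and 0.93 to 1.28 for Sfrp2. Pathway genes called higher, 2 as reported, were 5 with library totals alone, 4 with DESeq2, 0 with limma on the normalized table, 0 with the replicate block and 0 to 2 with a library left out. Those called lower, 4 as reported, were 2, 8, 2 and 1 in these settings and 0 to 3 with a library left out. Over all genes, 322 calls became 520 with library totals alone, 874 with DESeq2, 113 with limma on the normalized table, 90 with the replicate block and 11 (without control replicate 2) to 243 with a library left out, where fewer samples were fitted; other causes were not tested.

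Numbers 3 and 5 are used in both groups, so 2 pairs of libraries have a replicate number in common and no other stated link. Deviations from the group mean correlated at 0.27 for number 3 and -0.14 for number 5 over 17305 genes, and at -0.45 to 0.30 for pairs with different numbers. Control replicate 2 and mutant replicate 4 have numbers that occur in 1 group only. With the replicate block they add nothing to the group difference, which then rests on replicates 3 and 5 of each group. In that fit Dkk2 had an adjusted p of 0.0610 (log2 fold change 0.91) and Sfrp2 one of 0.0410 (1.17, edgeR).

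Signs turned for genes with differences near 0. Dkk1 was at -0.00177 with limma-voom, and ranged from -0.15 to 0.27 with a library left out. Dkk3 was at 0.16, Frzb at 0.17 and Lrp6 at 0.16 with library totals alone. With a library left out they ranged from -0.076 to 0.018 for Dkk3, -0.15 to 0.065 for Frzb and -0.096 to 0.044 for Lrp6, and Axin2 ranged from -0.089 to 0.14. The spread between libraries exceeded counting error in both groups for the 8 members, except in mutants for Sfrp2 (2.24% observed, 2.44% from counting).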

Other observations

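Several pathway genes outside the naming rule, chosen after their values were seen, had groups that do not overlap without passing the test. Of the 66 pathway genes tested, called genes included, groups did not overlap for 27, with the mutants higher for 12 and lower for the rest. Over all tested genes, 10.6% were so separated with the mutants higher and 10.8% with the mutants lower. Lgr5, a receptor gene for R-spondins and a Wnt target, averaged 1.42 ± 0.427 CPM in control libraries and 3.70 ± 0.930 CPM in mutant libraries (SD, n = 3), a log2 fold change of 1.39 (95% interval 0.68 to 2.09, adjusted p = 0.0738, edgeR). Cer1, another secreted inhibitor gene, stood at 2.30 ± 0.402 and 4.03 ± 0.605 CPM (adjusted p = 0.114). Igfbp4, which encodes a secreted protein that can bind LRP6, stood at 477 ± 46.4 and 613 ± 43.3 CPM (adjusted p = 0.132). Sfrp5, the nearest relative of Sfrp1 and Sfrp2 outside the 8, was on the other side, at 14.7 ± 3.77 and 10.9 ± 0.620 CPM (log2 fold change -0.43, 95% interval -0.84 to -0.025, adjusted p = 0.299). Also lower without overlap were Gsk3b (log2 fold change -0.44, adjusted p = 0.0707), Znrf3 (-0.34, adjusted p = 0.107) and Wnt4 (-0.48, adjusted p = 0.119, edgeR).

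Sfrp4 lay farther from its nearest gene in pattern than any other member did. The measure tends to grow with a gene's own spread, and that spread was largest for Sfrp4. The distance therefore does not show that the pattern of Sfrp4 lacks a match. Its nearest gene in pattern was Mmp13, a collagenase gene of bone and cartilage, at a root mean square difference of 0.345 in log2(CPM + 1), while the nearest gene of each other member lay at 0.0139 (Cops4, for Dkk3) to 0.111 (Tnn, for Sfrp2). Its biological coefficient of variation in the fit was 0.424, where genes of its abundance had 0.145.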
